A study of Luscinia megarhynchos and Luscinia luscinia with 4 samples.

Results

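ALG13 and FBXO11 are protein modification genes with copies on the germline-restricted chromosome (GRC) of nightingales. Their rows were taken from the deposited expression table by gene symbol, every identifier being kept as its own row, which gave 3 of the 799 rows and 2 of the 769 symbols. ALG13 had 1 row (flycatcher protein identifier XP_016153812). FBXO11 had 2 rows (XP_005043033 and XP_005043032). Both genes had been picked because each was among the highest in the ovary of a species, so their ovary levels are given as a description and nothing was tested on them.

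The GRC is an extra chromosome of songbirds that is kept in germ cells and lost from somatic cells. mRNA was sequenced from 4 groups, namely the ovary of *L. megarhynchos* (common nightingale), its testis, the ovary of *L. luscinia* (thrush nightingale) and its testis. Each group was 1 library from 1 adult wild bird, with no treatment and no control group, and the ovaries came from the females whose genomes served as the somatic references. There were thus no replicates, no spread between birds could be measured and no p-value was computed. Tissue, sex and bird cannot be told apart.

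ALG13 pairs with ALG14 in the enzyme that adds the second N-acetylglucosamine to the lipid-linked sugar chain from which N-glycans are built, at the face of the endoplasmic reticulum towards the cytosol. In humans a long form of ALG13 also carries an OTU-type domain, a fold known from deubiquitinases, and a Tudor domain. FBXO11 is an F-box protein, the part of an SCF ubiquitin ligase that binds the substrate, and in human cells it targets the transcription factor BCL6 and the replication regulator CDT2 for degradation. Both genes also exist on ordinary (A) chromosomes, and the values here are for reads that the authors placed uniquely on GRC exons.

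Levels were deposited as FPKM, fragments per kilobase and per 1000000 reads of the library. In the 4 libraries from 135 to 198 rows were above 0, with medians of 0.0169 to 0.0319 FPKM among those rows. The reads to which the libraries had been scaled, recovered as described under processing, numbered 35404629 to 57644189. Of the 799 rows, 192 are in the gene table of the study and 607 are not. The study left out genes with little of their coding region found, to limit misidentified homologues. Ranks of FPKM, shares and medians here draw on all 799 rows. The rows were deposited as genes of the GRC, so the tissue labels could hardly be checked. Of 35 marker symbols of oocytes, germ cells, spermatocytes and spermatids, granulosa, Sertoli, Leydig and theca cells, 3 had a row. All 3 had been listed for cell classes of the testis (SYCE3 and SYCP1 for spermatocytes and spermatids, DMRT1 for Sertoli cells). SYCE3 had 12.1 FPKM in the *L. megarhynchos* ovary and 0.216 in its testis, SYCP1 had 0.365 FPKM in that ovary and 0.0110 in the testis, and DMRT1 had 0.267 FPKM in the ovary and 0 in the testis. In *L. luscinia*, SYCP1 had 0.0681 FPKM in the ovary and 0 in the testis, DMRT1 had 0.436 FPKM in the ovary and 0 in the testis, and SYCE3 was listed at 0 in both. Wherever these GRC rows were above 0 they were thus higher in the ovary. The values are of GRC copies, and whether these follow the A-chromosomal genes used as markers was not tested. Nothing is therefore read from them about the tissue labels. None of the oocyte, germ cell, granulosa, Leydig or theca markers had a row. The part of cell composition in the results was not tested.

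Nearly all ALG13 reads came from the ovaries in both species. The gene had 27.2 FPKM in the *L. megarhynchos* ovary, against 0.0163 in the testis of that species, and 3.70 FPKM in the *L. luscinia* ovary, against 0 in its testis. The ovaries rested on 5431 reads in the common nightingale (exact Poisson 95% interval 5288 to 5577) and on 718 in the thrush nightingale (666 to 772). The *L. megarhynchos* testis had 2 reads (0.242 to 7.22) and that of *L. luscinia* none, a count taken to allow up to 3 reads. All intervals cover counting error only, not birds, and reads without molecular identifiers are not independent molecules.

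FBXO11 followed the same order of tissues, from the single row XP_005043033. It had 19.2 FPKM in the *L. megarhynchos* ovary, against 0.01002 in the testis, and 15.3 FPKM in the *L. luscinia* ovary, against 0.0224 in the testis. In reads, the *L. megarhynchos* ovary had 3123 (3014 to 3234) and that of *L. luscinia* 1500 (1425 to 1578), while the *L. megarhynchos* testis had 1 (0.0253 to 5.57) and that of *L. luscinia* 3 (0.619 to 8.77). The other FBXO11 identifier, XP_005043032, was listed at 0 in every library. Both are flycatcher protein entries of FBXO11. Each GRC exon had been assigned to its best flycatcher match, so how reads fell on the entries is uncertain.

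**Figure D1:**
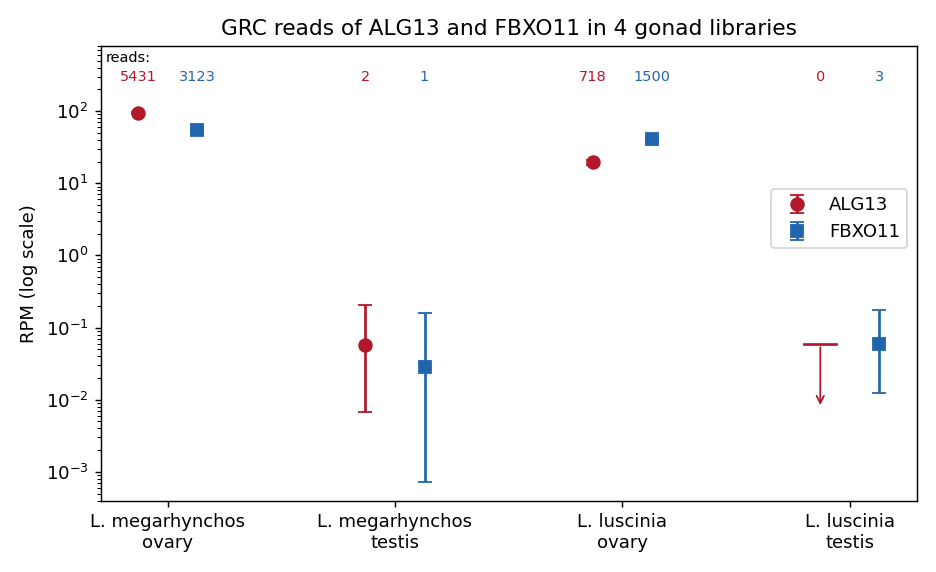
RPM (log axis) of ALG13 (red circles) and FBXO11 (blue squares) in each of the 4 libraries, with exact Poisson 95% intervals and the reads printed above. The bar with an arrow is the level of 3 reads, the limit taken for ALG13 in the *L. luscinia* testis, where no read was found; both ovaries lie far above both testes for either gene.

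In RPM, reads per 1000000 library reads, ALG13 had 94.2 in the *L. megarhynchos* ovary (91.7 to 96.8) and 0.0565 in the testis (0.00684 to 0.204), a ratio of 1668 (exact 95% interval 461 to 13775). At the rate of the ovary, the testis library would have held 3336 ALG13 reads, and it held 2. In *L. luscinia* ALG13 had 19.6 RPM in the ovary (18.2 to 21.1) and none in the testis. With the testis library set to 3 reads, ALG13 was 326-fold higher in the *L. luscinia* ovary. With no testis read, the lower limit of the exact 95% interval of the ratio was 265. At the ovary rate the testis library would have held 979 ALG13 reads.

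FBXO11 had 54.2 RPM in the *L. megarhynchos* ovary (52.3 to 56.1) and 0.0282 in the testis (0.000715 to 0.157), a ratio of 1918 with an exact interval of 344 to 75786. In *L. luscinia* it had 40.9 RPM in the ovary (38.9 to 43.1) and 0.0600 in the testis (0.0124 to 0.175), a ratio of 682 with an interval of 233 to 3311. At the ovary rates the testis library would have held 1918 FBXO11 reads in *L. megarhynchos* and 2046 in *L. luscinia*. The width of these intervals comes from the 1 and 3 testis reads. The intervals of both genes and species overlap, and which of the genes had the larger tissue ratio could not be resolved at this depth.

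Ovary over testis, as the difference of log2(FPKM + 0.01), was 10.01 for ALG13 and 9.91 for FBXO11 in *L. megarhynchos*. In that species 10.9% of the 267 rows above 0 in either tissue were at least 10-fold higher in the ovary. A larger difference than that of ALG13 was found in 4 rows. In *L. luscinia* the difference was 8.53 for ALG13 and 8.88 for FBXO11. There 10.6% of 180 rows were at least 10-fold higher in the ovary and 2 rows exceeded FBXO11. Many of these rows lie near the pseudocount and can hardly reach 10-fold. Among rows of at least 0.1 FPKM in either library, 28 of 94 were 10-fold higher in the ovary in *L. megarhynchos*, and 19 of 67 in *L. luscinia*. Over all rows above 0 in either tissue the median difference was -0.01 in *L. megarhynchos*, and it was -0.04 in *L. luscinia*. As the members were picked by their ovary levels, nothing is read from their place among the rows. All of these member differences depend on the pseudocount, since the testis values were at most 0.0224 FPKM. Without it the *L. megarhynchos* log2 ratios were 10.70 for ALG13 and 10.91 for FBXO11, the reverse order. For ALG13 in *L. luscinia* the testis value was 0, and the difference is no bound. The summed FPKM of all rows was 506 in the *L. megarhynchos* ovary and 152 in its testis. It was 124 in the *L. luscinia* ovary and 244 in its testis. In whole tissue, a different proportion of cells with a GRC and different RNA from each such cell cannot be told apart, and neither was tested.

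**Figure D2:**
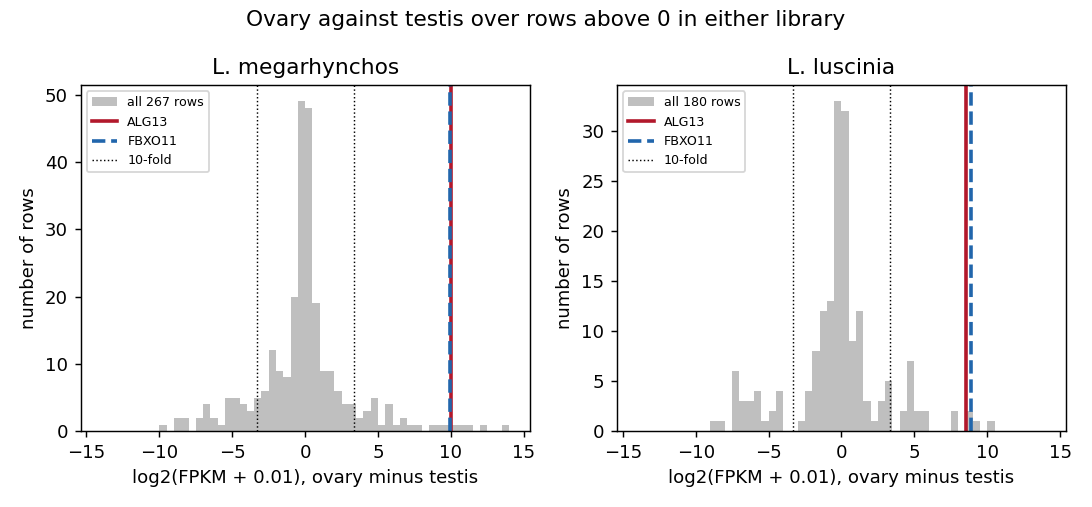
Number of rows (y axis) by the difference of log2(FPKM + 0.01), ovary minus testis (x axis), for rows above 0 in either library, with *L. megarhynchos* left and *L. luscinia* right. The lines of ALG13 and FBXO11 stand at 10.01 and 9.91 on the left and at 8.53 and 8.88 on the right, beyond the dotted 10-fold marks.

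Within the ovaries the places of the genes differed. In the *L. megarhynchos* ovary ALG13 ranked 4 and FBXO11 ranked 6 of 198 rows above 0. ALG13 stood between SLC26A9, an anion transporter (86.6 FPKM), and CPEB1, a regulator of mRNA polyadenylation (22.9 FPKM). FBXO11 stood between CPEB1 and SMU1, a splicing factor (17.1 FPKM). In the *L. luscinia* ovary the order of the pair was turned round, with FBXO11 at rank 3 and ALG13 at rank 8 of 140 rows. FBXO11 there lay between SLC26A9 (19.8 FPKM) and SCX, a transcription factor of tendon cells (12.7 FPKM). ALG13 lay between CHRAC1, a histone-fold subunit of chromatin remodelling complexes (3.85 FPKM), and IGF1R, the receptor of insulin-like growth factors (2.30 FPKM).

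**Figure D3:**
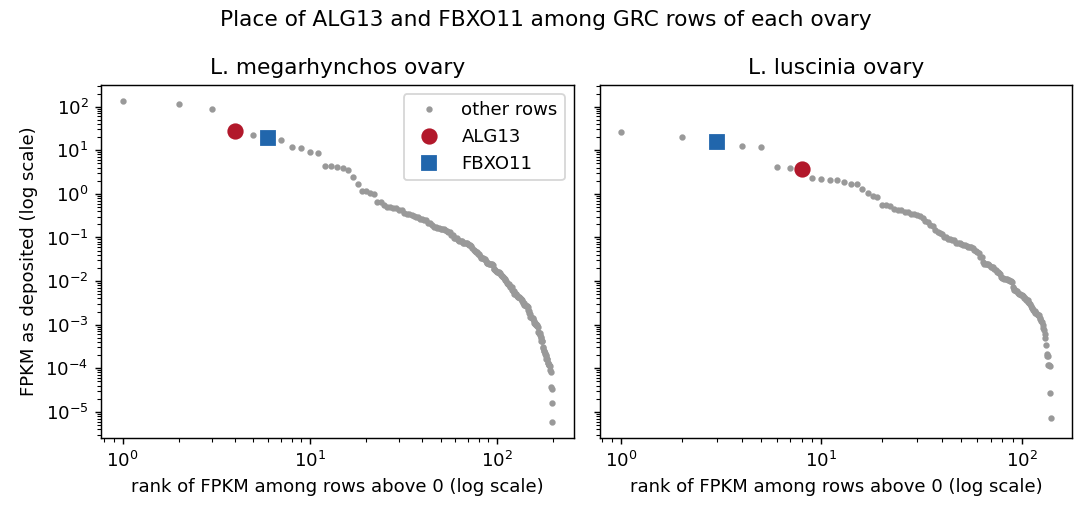
FPKM as deposited (y axis, log scale) against the rank among rows above 0 (x axis, log scale) in the *L. megarhynchos* ovary (left) and the *L. luscinia* ovary (right). ALG13 and FBXO11 hold ranks 4 and 6 on the left and ranks 8 and 3 on the right; grey points are the other rows.

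Between the species, ALG13 had 27.2 FPKM in the *L. megarhynchos* ovary, against 3.70 in that of *L. luscinia*, a ratio of 7.36 (counting interval 6.81 to 7.96). The difference of log2(FPKM + 0.01) was 2.88, below the 10-fold mark that 12% of 275 rows passed with *L. megarhynchos* higher. Among rows of at least 0.1 FPKM in either ovary, 31 of 77 passed it. The deposited FPKM contains the proportion of the coding region found on the GRC as a multiplier, and this proportion differed between the species for ALG13. In RPM the ratio was 4.81 (4.45 to 5.21). The length assembled on the GRC was taken as the coding length times the adjusted proportion of the study. That proportion is corrected for how much of the gene was found in the somatic genome, so the length is approximate. Divided by it, ALG13 had 35.2 RPM per kilobase in *L. megarhynchos*, against 11.2 in *L. luscinia*, a ratio of 3.14 (2.91 to 3.40). The ratio thus more than halved with the divisor while ALG13 stayed higher in *L. megarhynchos*.

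FBXO11 had 19.2 FPKM in the *L. megarhynchos* ovary, against 15.3 in that of *L. luscinia*, a ratio of 1.26 (counting interval 1.18 to 1.34). It was 1.32 (1.24 to 1.41) in RPM and 1.39 (1.31 to 1.48) per assembled kilobase, where FBXO11 had 23.9 RPM per kilobase in *L. megarhynchos* and 17.2 in the other species. These ratios exceeded the counting error, but each species was 1 bird and no spread between birds is known. Over the 63 rows above 0 in both ovaries the median difference of log2(FPKM + 0.01) was 0.71, with *L. megarhynchos* higher. FBXO11, at 0.33, lay below that median. As a share of the summed FPKM of all rows, FBXO11 made up 3.80% in the *L. megarhynchos* ovary, against 12.3% in that of *L. luscinia*, a ratio of 0.309. Taking shares changes the log2 ratio of every row above 0 in both ovaries alike, by -2.03, so the side of 1 on which FBXO11 lay depended on the summed FPKM of the libraries. ALG13 made up 5.38% in the *L. megarhynchos* ovary, against 2.98% in that of *L. luscinia*, a ratio of 1.81. The summed FPKM was 506 for the *L. megarhynchos* ovary, against 124 for that of *L. luscinia*. The study advises against comparing FPKM between libraries, because the proportion of cells with a GRC is not known.

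**Figure D4:**
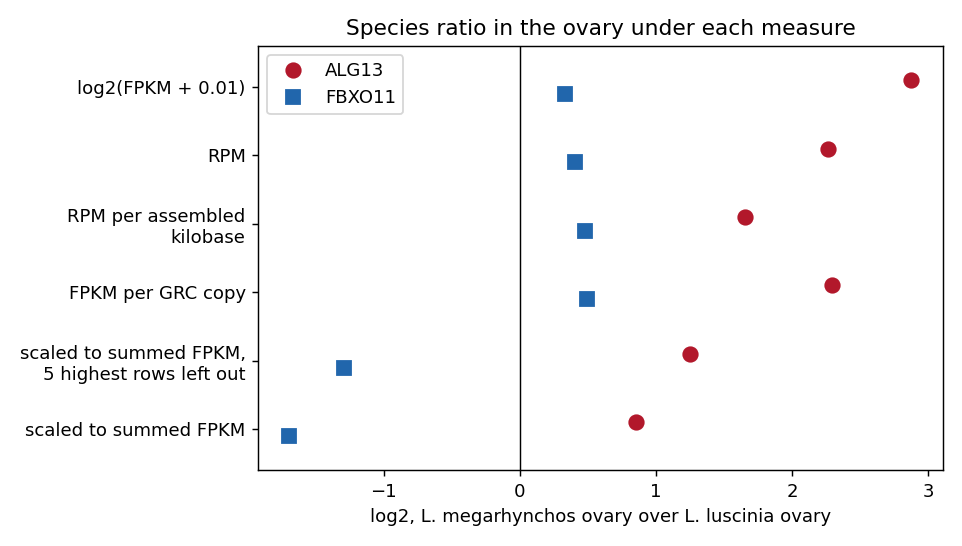
Log2 ratio of the *L. megarhynchos* ovary over the *L. luscinia* ovary (x axis) for ALG13 (red circles) and FBXO11 (blue squares) under 6 measures (rows). ALG13 lies right of 0 in each of them, from 0.85 to 2.88; FBXO11 lies at 0.33 to 0.50 in the upper 4 and left of 0 when libraries are scaled to their summed FPKM.

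The ratio of ALG13 to FBXO11 within a library does not depend on the depth of the library or on how its values are scaled. It can still depend on similarity to the A copies, which the study warns may lose GRC reads or misplace A reads. This was not tested. The comparison of the 2 genes was chosen after the values were seen. By FPKM, ALG13 was 1.42 times FBXO11 in the *L. megarhynchos* ovary (counting interval 1.35 to 1.48), but 0.242 times FBXO11 in that of *L. luscinia* (0.221 to 0.265). Per assembled kilobase the *L. megarhynchos* ratio was 1.47 (1.41 to 1.54) and the *L. luscinia* ratio 0.652 (0.596 to 0.714). ALG13 thus exceeded FBXO11 in *L. megarhynchos* and lay below it in *L. luscinia*, by both divisors. Per copy of the gene on the GRC, estimated in the 3 males sequenced per species, ALG13 had 2.39 FPKM and FBXO11 0.723 in *L. megarhynchos*, and 0.488 and 0.513 FPKM in *L. luscinia*. Per copy the *L. luscinia* ratio of deposited FPKM was 0.952, with an interval (0.870 to 1.04) that included 1. These per-copy values keep the proportion of the coding region found as a multiplier. Dividing by copies raised the *L. luscinia* FPKM ratio from 0.242 to 0.952. The *L. luscinia* ratios by reads (0.479) and per assembled kilobase (0.652) were well above 0.242. The same division would put ALG13 above FBXO11 by either of them. No interval was computed for reads per copy, and the order per copy in *L. luscinia* depends on the measure. The copies were counted in other birds than those whose RNA was sequenced.

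In the testes the species could not be compared. ALG13 had 2 reads in the *L. megarhynchos* testis and none in the *L. luscinia* testis, and FBXO11 had 1 read in the *L. megarhynchos* testis and 3 in that of *L. luscinia*, all within the limit that a count of 0 allows. A single read was worth 0.00815 FPKM for ALG13 and 0.01002 for FBXO11 in the *L. megarhynchos* testis, and 0.00378 and 0.00746 FPKM in the *L. luscinia* testis. Whether any of these reads came from A chromosomes was not tested.

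Few other genes of the pathways had rows. Of 63 symbols listed for N-glycosylation, ALG13 and PGM3 had a row. PGM3, an enzyme on the path to UDP-N-acetylglucosamine, the sugar donor of the ALG13 reaction, was listed at 0 in all 4 libraries. Of the symbols listed for SCF ligases and their regulators, FBXO11 and COPS4 had a row, and FBXO11 was the single F-box gene. COPS4, a subunit of the COP9 signalosome that removes NEDD8 from cullins, was at 0 in 3 libraries and at 0.00373 FPKM in the *L. megarhynchos* ovary.

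Likeness to the members was measured as the Euclidean distance of log2(FPKM + 0.01) over the 4 libraries, against 768 other symbols. The members were picked by their ovary levels, and these levels enter the distance. At least 1 FPKM in both ovaries was reached by 10 of the 799 rows, so few rows could lie near. The neighbours named are among them, and the list is a description only. With this pseudocount of 0.01, CPEB1 was nearest to both, at 2.19 from ALG13 and 2.02 from FBXO11. It had 22.9 and 11.8 FPKM in the *L. megarhynchos* and *L. luscinia* ovaries and 0 in both testes. The members came next to each other, at a distance of 2.73. After them followed IGF2, a growth factor, for ALG13 (2.82) and SLC26A9 for FBXO11 (2.81). IGF2 had 134.9 FPKM in the *L. megarhynchos* ovary, 2.11 in that of *L. luscinia*, and 0 in both testes. SLC26A9 had 86.6 FPKM in the *L. megarhynchos* ovary and 0.00994 in its testis, and 19.8 FPKM in the *L. luscinia* ovary and 0.0990 in its testis. The list of each was completed by PIAS1, a SUMO ligase, at 3.52 from ALG13 and 3.68 from FBXO11, and by IGF1R at 4.44 and 3.96. PIAS1 had 11.6 FPKM in the *L. megarhynchos* ovary and 0.0639 in its testis, and 2.10 FPKM in the *L. luscinia* ovary and 0.0607 in its testis. IGF1R had 3.82 FPKM in the *L. megarhynchos* ovary and 0 in its testis, and 2.30 FPKM in the *L. luscinia* ovary and 0.0729 in its testis. In the testes all of these rows were at most 0.0990 FPKM, so the distances and their order depend on the pseudocount. They were computed with 0.01 only.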

How the data were processed

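mRNA of 1 ovary and 1 testis per species was sequenced with 150 bp single-end reads from stranded libraries. Per the labels and the methods of the study, the authors used Trimmomatic 0.39 for trimming and STAR 2.7.9a for alignment, with the GRC assembly of a species added to its somatic genome, and retained unique alignments on GRC exons. Which program counted them, and whether it used strand, is not given in the sources used here. Expression was deposited as FPKM with decimal commas, and 0 per-sample columns were left unused.

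Reads were recovered for the 192 rows of the gene table of the study, with its coding lengths and adjusted proportions as inputs. There, 100% of values above 0 equalled whole reads (within 0.01) divided by coding length and library reads and multiplied by the adjusted proportion. The description of that table names the length on the GRC as the divisor, whereas these values use the full coding length. Tested on values simulated for 192 genes, the recovery returned 100% of the reads above 0 in each library. The simulation used the same formula, lengths and proportions. It therefore checks the arithmetic, and cannot show that the deposited values follow the formula. XP_005043032 lies outside these rows, so its reads were not recovered.

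Reads have exact Poisson 95% intervals, and ratios have exact intervals from Clopper-Pearson bounds. A row was counted as different past 10-fold on log2(FPKM + 0.01), a scale that understates changes of low rows. Genes named are the members, the 5 nearest symbols, the neighbours in rank and rows of the pathway and marker lists. Members and lists were chosen with earlier results of these data known. Alternatives were pseudocounts of 0.1 and 1, an FPKM minimum of 0.1, and scaling to summed FPKM with or without the 5 highest rows. Further ones were summed symbols, rows of the gene table of the study only, and reads without length, per assembled kilobase or per GRC copy. Per assembled kilobase means per kilobase of the coding length times the adjusted proportion. Per copy means deposited FPKM divided by the mean normalised coverage of the gene in the sequenced males. Python 3.11.15, numpy 2.4.6, pandas 2.3.3, scipy 1.17.1 and matplotlib 3.10.9 were used. Coordinates and sequences are left out, as no genome was used here.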

Additional observations from a re-analysis of the deposited data

Results flagged for a closer look

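The order of the genes differed between the ovaries. The log2 ratio of ALG13 over FBXO11 was 0.50 in the *L. megarhynchos* ovary, against -2.05 in that of *L. luscinia*, so that the single library of each species lay on opposite sides of 0. By reads it was 0.80 in *L. megarhynchos*, against -1.06 in *L. luscinia*, and per assembled kilobase 0.56, against -0.62. By deposited FPKM per GRC copy it was 1.72 in *L. megarhynchos*, against -0.0704 in *L. luscinia*. The counting interval of the *L. luscinia* ratio (0.870 to 1.04) included 1, and an opposite order could no longer be called. This per-copy measure keeps the proportion of the coding region found as a multiplier. Dividing by copies raised the log2 ratio in *L. luscinia* from -2.05 to -0.0704. The same division of the ratio by reads (-1.06) or per assembled kilobase (-0.62) would put it above 0. No interval was computed for reads per copy. The difference between the ovaries was not tested, since each species had 1 ovary library.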

How the results depend on the processing

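Of 79 alternative values, 43 stayed within the counting interval (within 1.5 times for counts of rows, at the same place for ranks), 34 moved and 2 turned direction. The 43 include ratios with the rows of a symbol summed, which could not change. ALG13 had 1 row and the second FBXO11 row was at 0 in every library. The 43 are therefore no measure of stability. With a pseudocount of 0.1 and of 1, ovary over testis (log2) was 7.87 and 4.79 for ALG13 and 7.46 and 4.32 for FBXO11 in *L. megarhynchos*, and 5.25 and 2.23 for ALG13 and 6.97 and 3.99 for FBXO11 in *L. luscinia*. The 2.23 is below 10-fold. Scaling to summed FPKM, with all rows and without the 5 highest, gave 9.10 and 8.94 for ALG13 in *L. luscinia*. Rows at least 10-fold higher in the ovary numbered 29 in *L. megarhynchos*, against 15 and 9 with these pseudocounts, and 19 in *L. luscinia*, against 9 and 4. Rows at least 10-fold higher in the *L. megarhynchos* than in the *L. luscinia* ovary numbered 33, against 9 and 4.

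For ALG13, *L. megarhynchos* over *L. luscinia* in the ovary (log2 2.88) became 2.59 with a pseudocount of 1, 0.85 and 1.25 under the same scalings, 2.27 in RPM, 1.65 per assembled kilobase and 2.29 per GRC copy. For FBXO11 (0.33) it turned to -1.69 and -1.29 under the scalings and moved to 0.48 per assembled kilobase and 0.50 per copy. The scalings shift by -2.03 and -1.63 every ratio between values far above the pseudocount, those of FBXO11 included, whereas the median over all rows, most of them low, was 0.14 as deposited and 0.02 under both. Ranks by reads and per assembled kilobase were taken among the 192 rows of the gene table of the study, and those of FPKM among all 799 rows. By reads, FBXO11 ranked 5 in *L. megarhynchos* and ALG13 ranked 5 in *L. luscinia*. Per assembled kilobase ALG13 ranked 5 and 6 in *L. megarhynchos* and *L. luscinia*, and FBXO11 ranked 5 in *L. luscinia*. ALG13 over FBXO11 was 0.80 by reads and 1.72 per copy in *L. megarhynchos*, and -1.06 by reads, -0.62 per assembled kilobase and -0.0704 per copy in *L. luscinia*.

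The measures by reads without a pseudocount between tissues and those of the ratio between the genes were chosen after seeing the data. No paired analysis was possible because each group held 1 library. Low counts limit the testes, where ALG13 and FBXO11 had at most 3 reads. The *L. luscinia* testis library was the larger of its species, with 49987547 reads against 36650197 in the ovary. In *L. megarhynchos* the testis library was the smaller, with 35404629 reads against 57644189.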

Other observations

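With limits chosen after seeing the data, 10 of the 799 rows had at least 1 FPKM in both ovaries. Of these, 4 were below 0.05 FPKM in both testes. Most of the 799 rows were at 0 in a testis, with 183 above 0 in that of *L. megarhynchos* and 135 in that of *L. luscinia*. The rows below the limit were ALG13, FBXO11, CPEB1 and IGF2, of which CPEB1 and IGF2 were listed at 0 in both testes. The other 6 rows reached 0.05 FPKM in at least 1 testis. They included SLC26A9, PIAS1 and IGF1R, which were at most 0.0990 FPKM in either testis and far higher in both ovaries. LOC107604624, also among them, was higher in the testis in both species (log2 difference -1.69 and -1.73). The limit thus does not set the members apart from rows just past it.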
